A study of Homo sapiens with 2 samples.

Results

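The annexins are a family of proteins that bind acidic phospholipids, above all phosphatidylserine, when the calcium concentration in the cytosol rises. Each carries a conserved core of annexin repeats and a variable amino-terminal tail that binds partners such as S100 proteins. Through this calcium switch annexins take part in membrane repair, exocytosis and endocytosis, the organisation of actin at the plasma membrane and, outside the cell, in resolving inflammation and generating plasmin. The annexins described here are the 10 genes ANXA1, ANXA2, ANXA3, ANXA4, ANXA5, ANXA6, ANXA7, ANXA9, ANXA11 and ANXA13, of 19775 genes measured. A member's probe sets were those whose platform annotation gives its symbol and no other, 20 in all of 54675 on the array. Each gene is represented by its brightest probe set, judged on the average over both arrays. The family is defined by gene name, but it was selected on the differences measured between these arrays, and the probe set for each gene was chosen by its brightness on them. The values that follow are therefore a description and carry no test.

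The cells were HEC1A, a cell line established from a human endometrial adenocarcinoma. RNA of cells that overexpress EMP2 went to 1 array and RNA of cells in which a short hairpin RNA vector knocks EMP2 down went to the other. EMP2, epithelial membrane protein 2, is a small tetraspan membrane protein. Both groups were HEC1A cells grown in McCoy's medium with serum and otherwise left untreated, and parental cells without either construct were not analysed here. Which construct a difference goes with cannot be told apart. The labels do not say whether each line was a clone or a pool. With 1 array per group there is no replicate, so no difference has an error or a p-value.

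Values are the deposited log2 values, with overexpression given first and knockdown second wherever a pair is printed, and each difference is the former minus the latter. EMP2 itself read 12.25 and 9.51 on its brightest probe set, in the direction of the labels, while its other 3 probe sets differed by 0.39, 0.23 and 0.00. The 18 hybridization controls differed by at most 0.10, a gap that does not measure variation between cultures or RNA samples. The 3 probe sets of 18S ribosomal RNA differed by -0.47, -0.95 and -1.09, and their part in the results was not tested. The gap between the 3' and 5' probe sets of ACTB was 1.07 in overexpression and 1.02 in knockdown. All 5 epithelial markers read between 9.31 and 13.2, and the Mullerian marker PAX8 read 11.26 and 11.33. A gene passes the brightness filter if the higher of its values reaches 6.40, the median of single-symbol probe sets, and the highest of 27 Bacillus subtilis control probe sets, 5.85, stands for background. Of 13 measured markers of leukocytes, fibroblasts and endothelium, 6 did not exceed that background on either array and the highest reading was 8.51.

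The family held 1 member past 1.5-fold in each direction. ANXA6 was 1.71-fold higher in the overexpressing cells, and ANXA13 was at least 1.70-fold lower. The other 8 were within 1.5-fold. All 10 members passed the brightness filter, ANXA13 only through its knockdown value. Beside that 1 of 10 annexins in each direction, the share of the 12061 genes past the filter that reached 1.5-fold was 4.97% upward and 4.15% downward. No annexin reached 2-fold, beside 1.65% of genes higher and 1.53% lower. These members were chosen with the same contrast known, so nothing is read from their counts. The median difference of the 10 annexins was 0.10, and that of all genes past the filter was 0.00. In these bulk RNA samples, fewer cells that express a gene and less of its RNA per cell cannot be told apart.

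**Figure D1:**
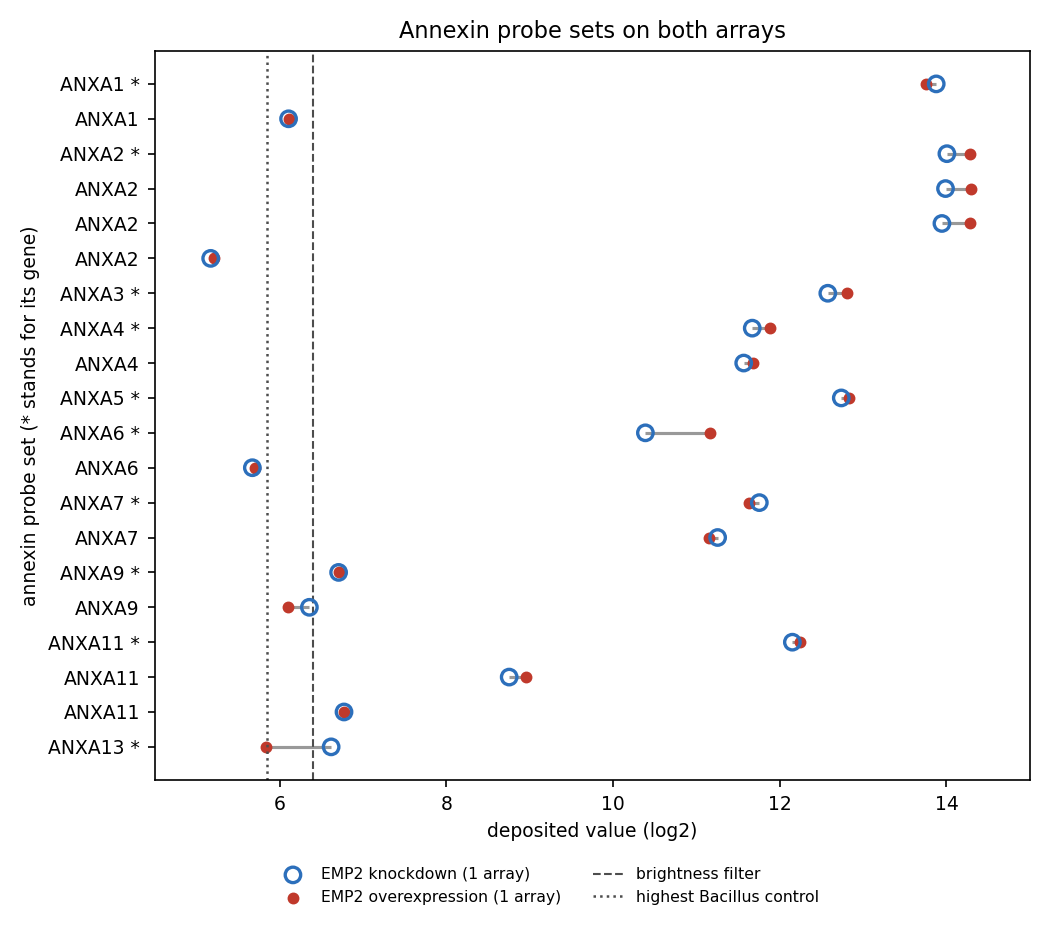
Deposited log2 value of each of the 20 annexin probe sets on the EMP2 overexpression array (filled red) and the EMP2 knockdown array (open blue), 1 array each, with a grey line joining the pair. The dashed line is the brightness filter at 6.40 and the dotted line the highest Bacillus control at 5.85. ANXA6 and ANXA13 show the widest gaps among the probe sets that stand for a gene. Positions along the axis compare the arrays for 1 probe set and not one gene with another.

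ANXA6 encodes the largest annexin, which carries a duplicated core of repeats and is known for binding membranes, actin and protein kinase C alpha and for a role in endocytosis and cholesterol handling. Its bright probe set read 11.16 and 10.39, a difference of 0.77. The overexpression array was the higher of the pair, and both values lay far above background. Among the 12061 genes past the filter ANXA6 ranked 644 by absolute difference, so 5.34% of genes differed at least as much. Its other probe set read 5.71 and 5.67, below the highest Bacillus control on both arrays, so it gives no second reading of the gene. With both probe sets averaged the ANXA6 difference was 0.40 and no longer reached 1.5-fold.

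RefSeq lists 2 transcription starts of ANXA6 in the promoter table used here. The 250 bases before each are shown as the genomic context of the member that was higher in overexpression, read 5′ to 3′ on the minus strand of GRCh38.p14, with capitals marking matches to the motifs named below. The first lies at chr5:151157780-151158029 and the second at chr5:151141685-151141934. Where the probe sets lie relative to these starts is not known here.
ANXA6 upstream start: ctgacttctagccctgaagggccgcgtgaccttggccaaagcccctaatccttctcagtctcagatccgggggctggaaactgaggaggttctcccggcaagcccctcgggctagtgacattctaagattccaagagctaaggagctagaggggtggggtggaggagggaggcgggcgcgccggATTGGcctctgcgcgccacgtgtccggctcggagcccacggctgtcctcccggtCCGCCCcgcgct
ANXA6 internal start: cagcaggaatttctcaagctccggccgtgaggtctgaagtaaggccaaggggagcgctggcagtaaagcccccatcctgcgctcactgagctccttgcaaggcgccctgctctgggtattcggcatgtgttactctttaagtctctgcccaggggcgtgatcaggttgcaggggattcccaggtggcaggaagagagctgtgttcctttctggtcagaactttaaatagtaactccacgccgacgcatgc

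Motifs were searched on both strands in the 250 bases before each start. The upstream ANXA6 window held 1 GC box (GGGCGG), the core letters bound by Sp1-type factors, and 1 CCAAT box (CCAAT), and it held neither a TATA box (TATAAA) nor an AP-1 site (TGANTCA). These 2 matches do not overlap. The internal window held none of the 4. The upstream window was 65.6% G and C and the internal one 56.4%, beside a median of 58.0% over 34943 windows of the table. A GC box stood in 42.5% of all windows, a CCAAT box in 32.0%, a TATA box in 10.8% and an AP-1 site in 6.59%. Of 13 windows belonging to 9 annexins, 7 held a GC box, 4 a CCAAT box, 3 a TATA box and 1 an AP-1 site. No ANXA13 window was counted, while the shares over all windows took in every gene of the promoter table. The TATA letters stood before ANXA1, ANXA2 and the farthest upstream ANXA11 start, and the AP-1 letters before ANXA2. A match describes letters in a window and does not show a factor bound there.

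ANXA13, an annexin best known from the epithelium of intestine and kidney, read 5.84 and 6.62 on its only probe set, a difference of -0.78. The overexpression value was level with the highest Bacillus control, so only a bound can be given, at least 1.70-fold lower. Even the knockdown value lay within 1 log2 unit of that control. With a filter at the 75th percentile of single-symbol probe sets, a log2 value of 8.52, ANXA13 drops out, and so does ANXA9. The 8 members that remain include ANXA6 as the only one past 1.5-fold, beside 8.49% of 7469 genes in either direction.

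The 3 annexins with the best known S100 partnerships stayed within 1.5-fold. ANXA2 encodes annexin A2, which forms a complex with S100A10 at the plasma membrane and acts as a surface platform for plasminogen activation. Its brightest probe set read 14.29 and 14.01, a difference of 0.28. A further 2 probe sets differed by 0.30 and 0.34, so the 3 bright ANXA2 probe sets all read slightly higher in overexpression. The remaining ANXA2 probe set, at 5.22 and 5.17, was below background. These bright probe sets have names ending in _x_at, Affymetrix's mark for probes that may also bind other transcripts. The probe set of the processed pseudogene ANXA2P2 read 13.18 and 12.88, a difference of 0.30, so the signals of ANXA2 and its near-identical copies cannot be separated here.

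ANXA1 encodes annexin A1, a protein induced by glucocorticoids that limits phospholipase A2 activity and signals through formyl peptide receptors. It read 13.76 and 13.88, a difference of -0.12. The overexpression array was the lower, by little more than the widest gap among the hybridization controls. Of all genes past the filter, 56.8% differed at least as much as ANXA1. The second ANXA1 probe set carried the same value, 6.11, on both arrays. ANXA11 encodes annexin A11, which binds S100A6 and tethers RNA granules to lysosomes. It read 12.25 and 12.15, a difference of 0.10. Its second probe set differed by 0.20, at 8.96 and 8.75, and the dimmest held 6.77 on both arrays.

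The S100 partners S100A10, S100A11 and S100A6 stayed within 1.5-fold, and S100A4 did not. S100A10, the partner of annexin A2, read 13.86 and 13.79, a difference of 0.08. S100A11, a partner of annexin A1, read 11.70 and 11.84, a difference of -0.14, and S100A6 read 13.64 and 13.85, a difference of -0.21. S100A4, which also binds annexin A2, was 2.98-fold lower in overexpression, at 12.15 against 13.72.

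ANXA3, ANXA4 and ANXA5, compact annexins with a single core, each read slightly higher in overexpression. ANXA5, whose protein is the reagent used to stain phosphatidylserine on dying cells, read 12.84 and 12.74 on its only probe set. Its difference of 0.10 equals the widest gap among the hybridization controls to 2 decimals, and 63% of genes past the filter differed at least as much. ANXA4, an annexin of secretory epithelia, read 11.88 and 11.67, a difference of 0.21, and its second probe set differed by 0.11. ANXA3 read 12.81 and 12.58 on its only probe set, a difference of 0.23.

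ANXA7, which with ANXA11 has a long amino-terminal tail and binds the calcium protein sorcin, was slightly lower in overexpression on both of its probe sets. The brighter read 11.63 and 11.76, a difference of -0.13, and the other 11.15 and 11.26, a difference of -0.11. ANXA9, an annexin whose core has lost its calcium-binding residues, read 6.71 on both arrays, with no difference, and 6.10 and 6.36 on its second probe set. Its values lay within 1 log2 unit of the highest Bacillus control. Of the 20 annexin probe sets, 3 held identical values on both arrays (15%), beside 14.6% of all probe sets, 22.2% of those below the brightness filter and 5.32% of those past it. The identical pairs of ANXA9 and ANXA11 were among the 16 annexin probe sets past the filter. That of ANXA1 was among the 4 below it. Why values repeat exactly is not given in the sources used here, so an identical pair was taken as deposited.

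**Figure D2:**
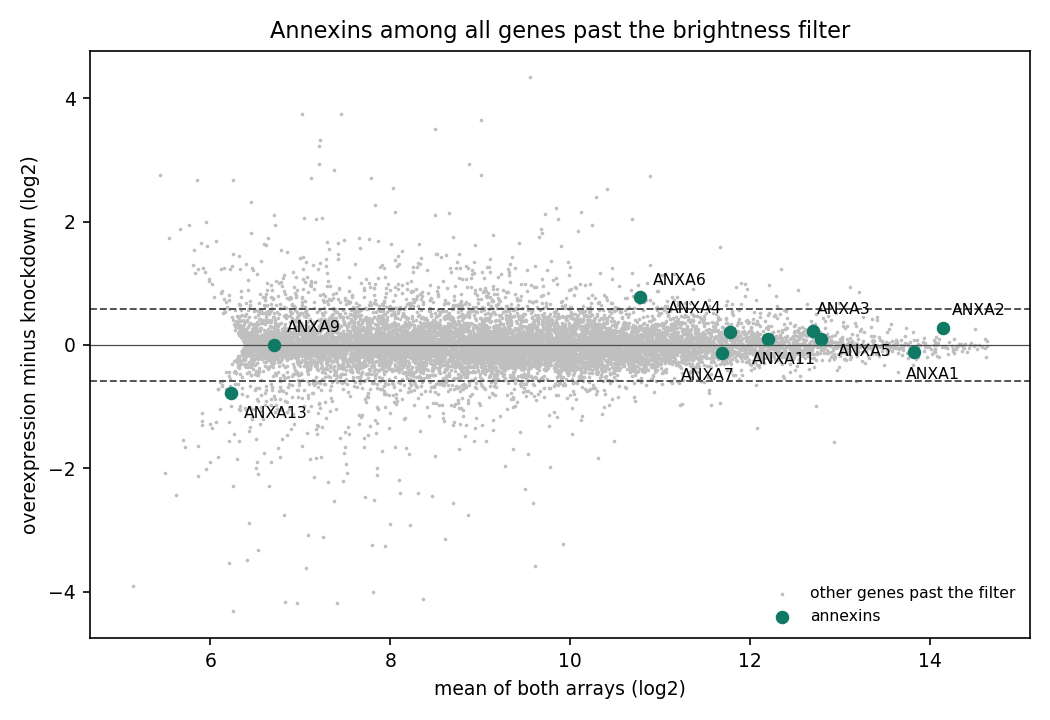
Difference (overexpression minus knockdown, log2) against the mean of both arrays (log2) for the 12061 genes past the brightness filter, with the 10 annexins in green and dashed lines at 1.5-fold. ANXA6 (0.77) lies above the upper line and ANXA13 (-0.78) below the lower one. The other 8 lie between -0.13 and 0.28.

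Of the 7 annexins besides ANXA6 that pass the 75th percentile filter, differences ran from -0.13 to 0.28. The absolute difference had a median of 0.17 over the 10 annexins and of 0.15 over all genes past the filter. In this family 6 members were above 0, 3 below and 1 equal, beside 45.6% of genes past the filter above 0.

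Genes that work with annexins were taken from lists fixed by function. The counts of each list stand beside 4.97% of all genes past the filter higher by 1.5-fold or more and 4.15% lower. Among 11 annexin partners past the filter, S100A4 alone was lower by 1.5-fold or more, none was higher by that much, and the list's median was -0.02. AHNAK, the large scaffold bound by the annexin A2 complex, differed by 0.07. PDCD6 and PEF1, calcium sensors of which PDCD6 binds annexins A7 and A11, differed by -0.02 and 0.09. SRI, which encodes sorcin, differed by -0.26 on its bright probe set and by -0.61 on the dimmer one. PRKCA, the protein kinase C isoform that binds annexin A6, gave mixed readings. The brightest of its probe sets read 11.48 and 11.38, a difference of 0.10, and another, at 9.23 in overexpression, differed by 1.23. In all, 1.5-fold was reached upward by 2 of the 4 PRKCA probe sets bright enough to pass.

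Among 14 membrane repair genes past the filter, 2 reached 1.5-fold upward and none downward, with a median of 0.09. SMPD1, acid sphingomyelinase, an enzyme released by lysosomes at wounds, was 1.61-fold higher, at 8.61 in overexpression against 7.92 in knockdown. Another of its probe sets past the filter held 6.56 on both arrays. CAVIN1, a coat protein of caveolae, was the other, at 10.25 against 6.74, which is 11.4-fold. Its second probe set past the filter was 2.02-fold higher, at 7.55 against 6.54. The dimmest CAVIN1 probe set, below the filter, read 6.25 against 4.94. The ferlins that act beside annexins in repair were close on both arrays, with a difference of 0.14 for dysferlin (DYSF) and 0.21 for myoferlin (MYOF). The calpain subunits CAPN1, CAPN2 and CAPNS1 differed by 0.04, -0.05 and 0.07.

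Annexins bind phosphatidylserine, and 7 genes past the filter were listed as setting its place in the membrane. Of these, 2 reached 1.5-fold downward and none upward, beside 4.15% and 4.97% of all genes, with a median of -0.23. Both encode flippases, which return phosphatidylserine to the inner leaflet. ATP8A1 read 5.86 and 7.05, a difference of -1.19. It passed the filter only through its knockdown value, and its overexpression value lay at the background level, so the size of the fold is not firm. ATP11A was 1.71-fold lower, at 8.95 against 9.73, and 2 of the 4 ATP11A probe sets bright enough to pass were lower by 1.5-fold or more. ATP11B differed by -0.24, and the shared flippase subunit TMEM30A by -0.09. The scramblases that expose the lipid, ANO6 and XKR8, differed by 0.03 and -0.07.

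None of 5 annexin A1 signalling genes past the filter reached 1.5-fold, with a median of 0.01. The formyl peptide receptors FPR1, FPR2 and FPR3 did not pass the filter, and the glucocorticoid receptor NR3C1 differed by -0.02. PLA2G4A, the cytosolic phospholipase A2 that annexin A1 limits, read 8.40 and 8.88, a difference of -0.48. The phosphatase DUSP1 read 9.01 and 8.48, a difference of 0.53. In the plasmin system, which annexin A2 helps to assemble at the surface, 1 of 6 genes past the filter reached 1.5-fold downward and none upward, with a median of -0.07. This was SERPINE2, an inhibitor of thrombin and plasminogen activators, which was 1.75-fold lower, at 9.59 against 10.40. PLAU, the urokinase activator, read 10.71 and 10.15, a difference of 0.55 that falls short of 1.5-fold.

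Some proteins with C2 domains also bind phospholipids in response to calcium. Among 13 genes past the filter from a list of C2-domain proteins, 2 reached 1.5-fold upward and 1 downward, with a median of -0.04. Whether each of these proteins binds phospholipids, or needs calcium to do so, was not tested. SYTL2, a Rab27 effector in vesicle transport, was 2.46-fold higher, at 8.56 in overexpression against 7.25 in knockdown, with both of its brighter probe sets above 1.5-fold. MCTP1, a membrane-anchored C2 protein, was 2.26-fold higher, at 9.91 against 8.73, with both brighter probe sets likewise above 1.5-fold. CPNE3, a copine, was 1.54-fold lower, at 10.71 against 11.33, while its second probe set, at 6.11 against 6.59, was 1.39-fold lower and did not reach 1.5-fold. The counts of every list stand beside the 4.97% and 4.15% of all genes given above, and with so few members no list is set apart by them.

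**Figure D3:**
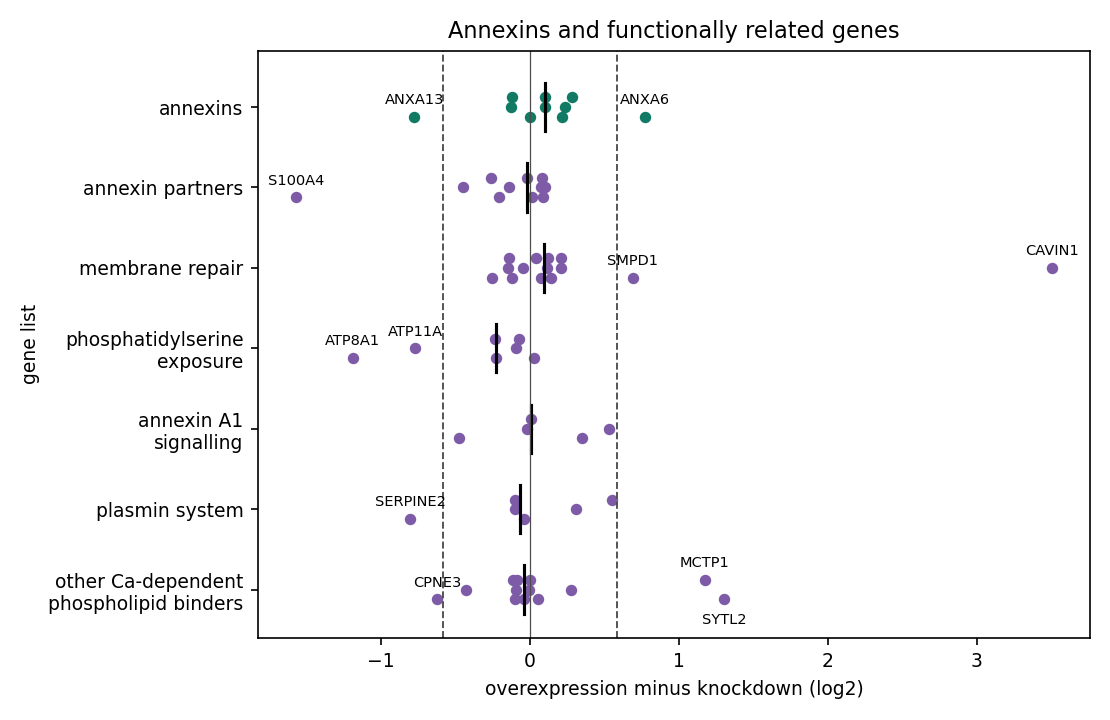
Difference (overexpression minus knockdown, log2) of each gene past the brightness filter in the annexin family (green) and in 6 lists of related genes (purple), with a black bar at each list's median and dashed lines at 1.5-fold. Genes past 1.5-fold are named. The row labelled as other calcium-dependent phospholipid binders holds genes of C2-domain proteins, whose calcium dependence was not tested. The annexin median is 0.10 and the list medians run from -0.23 (phosphatidylserine exposure) to 0.09 (membrane repair).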

How the data were processed

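The deposited table gives, for each array and probe set, 1 log2 value. No source states the base, which was read as 2 because values span 2.01 to 14.72. Per the submitters' processing notes Partek 6.6 was used. How background, normalization and summarization were handled is not given in the sources used here. Both arrays had nearly the same distribution, with medians of 6.02 and 6.01 and sorted values at most 0.05 apart, so a shift common to most genes would not be seen. Depth does not apply to arrays, and their number limits the precision.

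Groups were taken from the labels. Probe sets were named from the platform annotation, in which 41097 had 1 gene symbol, and all 20 annexin probe sets matched a RefSeq gene by identifier and symbol. Promoter sequences are from RefSeq (GRCh38.p14). No further scaling and no pseudocount were applied, in Python 3.11.15 with pandas 2.3.3. Where a gene's lower value did not exceed 5.85, its fold was computed against 5.85. The code was tested on simulated data.

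All annexins are named, with EMP2, the S100 partners S100A10, S100A11 and S100A6, and up to 4 genes per list past the filter and 1.5-fold. Other list genes and relatives were named after their values were seen. The members and lists were chosen with earlier results of these data known. Alternatives were averaged probe sets, the probe set brightest in knockdown, median centring, quantile normalization, no filter, a filter at the 75th percentile and a threshold of 2-fold. A mean over only the probe sets past the filter was added after seeing the data. Probe sets listing several genes were left out, 3 of them naming an annexin.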

Additional observations from a re-analysis of the deposited data

How the results depend on the processing

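The count of annexins at least 1.5-fold higher was 1, and it was 0 with a gene's probe sets averaged and 0 at a threshold of 2-fold. The share of all genes past the filter that was higher was 4.97%, beside 3.87% with probe sets averaged and 1.65% at 2-fold. The average takes in the ANXA6 probe set below background. Over the probe sets past the filter alone, an alternative chosen after seeing the data, the count stayed at 1 with ANXA6 at 0.77. The share of all genes was then 4.69%. The count of annexins at least 1.5-fold lower was 1, and it was 0 with a filter at the 75th percentile, which removes ANXA13 and ANXA9. It was also 0 at 2-fold on the deposited values, where the ANXA13 fold is only a lower bound. The share of all genes that was lower was 4.15%, beside 3.59% with the 75th percentile filter and 1.53% at 2-fold. Under median centring and quantile normalization both counts were 1, and ANXA6 differed by 0.76 under each. The shares of all genes were 4.75% higher and 4.29% lower under median centring, and 4.79% and 4.24% under quantile normalization. The median difference of the annexins ran from 0.08 under quantile normalization to 0.15 with the filter at the 75th percentile. The calls that lead the text, ANXA6 and ANXA13, rest on 1 probe set each. No paired analysis was possible because each group has 1 array and the labels carry no replicate number.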

Other observations

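Other annexin-related transcripts outside the 10 genes were read on 1 probe set each. ANXA2R, which encodes the annexin A2 receptor, read 7.75 in overexpression against 7.30, which is 0.46 apart. The antisense transcript ANXA2R-AS1, whose gene overlaps ANXA2R, was 2.19-fold higher, at 7.39 against 6.25. It passed the brightness filter of 6.40 only through its overexpression value, so the size of that fold is not firm. ANXA2R-OT1, a noncoding transcript whose gene spans ANXA2R, read 7.20 and 6.92, a difference of 0.28. All 3 transcripts of this locus thus read higher in overexpression, and only the antisense one passed 1.5-fold. The ANXA2 pseudogenes ANXA2P1 and ANXA2P3 differed by 0.44 and 0.16. ANXA10, an annexin of gastric epithelium, held 3.19 on both arrays, below the highest Bacillus control.

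The tissue plasminogen activator PLAT read 6.37 in overexpression and 5.09 in knockdown. It was left out of the counts because it did not reach the brightness filter, and against the highest Bacillus control it was at least 1.43-fold higher.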
